A study of Mus musculus with 52 samples.

Results

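The defensin genes of mouse chromosome 8 (chr8) were taken as the protein-coding genes of the GENCODE M21 annotation whose symbol begins with Defa or Defb, which gave 46 of 21938 protein-coding genes, 22 of them alpha-defensin (Defa) and 24 beta-defensin (Defb) genes. Each gene was extended by 50 kb on both sides, and overlapping stretches were joined, which left 4 intervals of 1701 kb in all (mm10). In order along the chromosome, the first interval (chr8:18924940-19345291) held 12 genes from Defb40 to Defb3. The next (chr8:19395769-19547775) held Defb8 and Defb7, and the one after it (chr8:20842669-20947723) held Defb33 alone. The last (chr8:20975545-21998850) held 31 genes from Defa21 to Defb13, among them all 22 Defa genes.

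Peaks came from chromatin immunoprecipitation followed by sequencing (ChIP-seq) in clonal female mouse embryonic fibroblasts (MEFs) of a cross between Mus musculus domesticus (FVB) and M. m. castaneus. The proteins immunoprecipitated were CTCF, an insulator protein that binds DNA directly, Rad21, a subunit of the cohesin ring, and SmcHD1, an SMC-family protein enriched on the inactive X chromosome. The genotypes were wild type (wt, clone Wt2A1), a germline SmcHD1 null mutant carrying the MommeD1 mutation (mut, clone Mut5A6) and a somatic CRISPR knockout (somKO, clones A3-3 and D4). One merged peak list was available for each antibody and genotype, 8 in all, of 244 to 89974 peaks, and SmcHD1 was profiled in wt and mut alone. Each line was 1 clone, except that both somKO clones shared a list, and the knockout was made in another wt line than Wt2A1, with 2 FVB alleles and 1 castaneus allele of SmcHD1, so clone and genotype cannot be told apart. Copy number of chr8 in the clones was not determined here, and peak counts were not adjusted for it. The paper painted chr8 in metaphases of the wt and mut clones and describes the somKO clones as triploid. Autosomes were mosaic for the parental strains, and both alleles were counted together. With 1 list per group there was no spread between replicates, so no test was made, and all intervals below are 95% intervals for counting error alone. The lists hold no RNA, so the cell type could not be checked against its markers, and whether a defensin gene was transcribed was not measured.

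Defensins are small cationic peptides held by disulphide bonds that disrupt microbial membranes. In the mouse, alpha-defensins (cryptdins) are made chiefly by Paneth cells at the base of intestinal crypts, while beta-defensins are made by epithelia of the skin, airways, mouth and male reproductive tract. The genes lie in tandem clusters that arose by duplication, and the number of alpha-defensin genes is known to differ between mouse strains. The reference sequence showed such duplication directly. Of the 50-base words that begin inside an alpha-defensin gene, a median of 87.3% per gene occurred again elsewhere on chr8, and 19 of 22 Defa genes were at 50% or more. The median over the 24 Defb genes was 6.80%, and 0 of them reached 50%. For the whole of chr8 the share was 7.45%.

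The defensin genes themselves were almost free of peaks of all 3 proteins. In 7 of the 8 lists no peak overlapped any of the 46 genes, and in the remaining list, CTCF in mut, 1 peak overlapped Defb3. Among the 994 other protein-coding genes of chr8, 66.6% carried a CTCF peak and 71.4% a Rad21 peak within the gene in wt. For SmcHD1 the shares were 4.73% in wt and 0.302% in mut, so 0 of 46 is near that background. A defensin gene is also short and offers less length for an overlap. Of the 26 members with an entry in the RefSeq promoter table (GRCm38), 1 promoter, again that of Defb3, met a peak of any list. The share over all promoters was not counted, so this number is no measure of depletion.

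**Figure D1:**
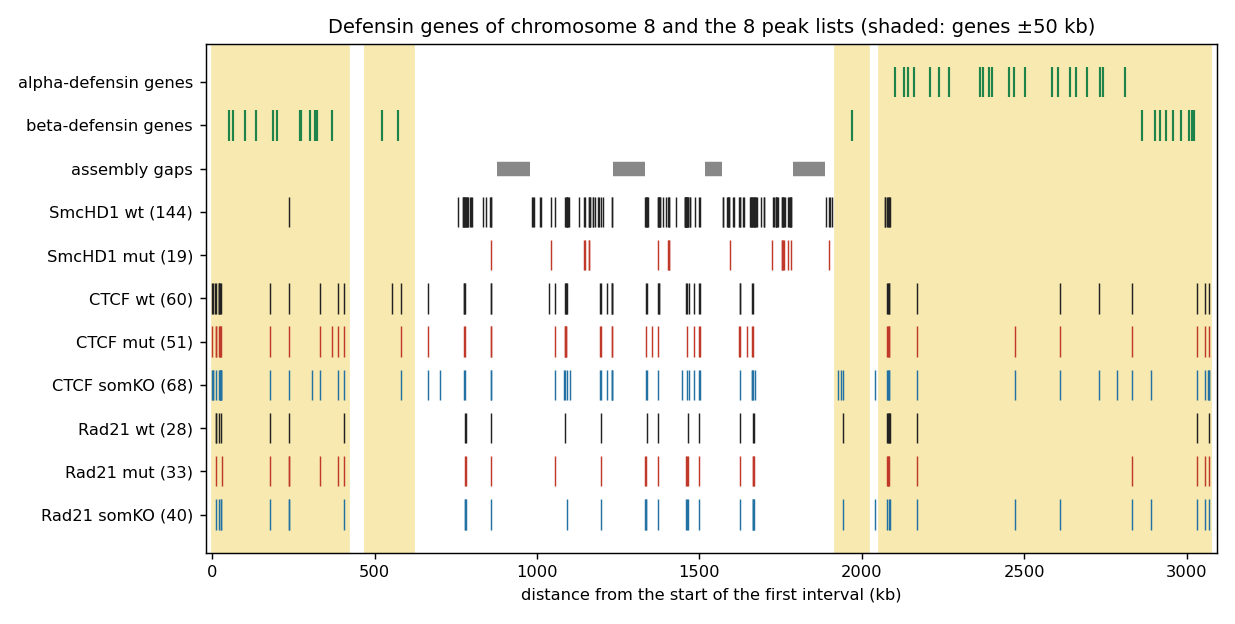
Positions of the 46 defensin genes, the assembly gaps and the peaks of the 8 lists along chr8, in kb from the start of the first interval, with the number of peaks of each list in brackets. Shaded stretches are the genes extended by 50 kb, and the dense block of SmcHD1 wt peaks (136 of 144) lies in the unshaded segment between the intervals of Defb7 and Defb33.

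SmcHD1 was examined first, since the genes were selected on the SmcHD1 peak densities of these same lists. The values are therefore a description of that choice and support nothing further. In wt, 8 SmcHD1 peaks lay in the intervals, 1 in the first and 7 in the fourth, and in mut there were 0. The density was 4.70 peaks per Mb in wt (interval 2.03 to 9.27) and 0 in mut (upper limit 2.17). The rest of chr8 carried 2.46 peaks per Mb in wt and 0.235 in mut, so the ratio of intervals to rest in wt was 1.91 (interval 0.819 to 3.82), which includes 1. That ratio depended on its surroundings, being 3.34 (1.42 to 6.72) once the segments between the intervals were left out of the rest of chr8, and 0 with genes extended by 10 kb. The mut list was short everywhere, with 244 peaks against 6993 in wt, or 3.49% as many. The paper describes the mut cells as SmcHD1 null, with the SmcHD1 domain of the inactive X lost. Peaks of the mut list are therefore named after the antibody and not read as SmcHD1 binding. What gives rise to them was not tested. A SmcHD1 wt peak lay within 50 kb of 6 of the 46 genes, against 19.9% of all protein-coding genes. In mut the count was 0 of 46 against 2.09% of all genes. No SmcHD1 wt peak lay within 10 kb of a member, and all 8 were 10 to 50 kb away.

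Most of the SmcHD1 wt peaks between Defb40 and Defb13 lay in the segment between Defb7 and Defb33, chr8:19547776-20842668, which the 50 kb rule leaves out. This segment of 1.29 Mb, of which 350.0 kb is assembly gap, holds no defensin gene, 4 other protein-coding genes and 18 pseudogenes. It carried 136 SmcHD1 peaks in wt, 42.2% of the 322 on chr8, and 19 in mut, 63.3% of the 30 on chr8. The densities there were 105.0 per Mb in wt (88.1 to 124.2) and 14.7 per Mb in mut (8.83 to 22.9). Of the 19 mut peaks, 18 overlapped a wt peak. The wt density of the segment is therefore not read as SmcHD1 binding alone. The threshold of 50 kb fell in a bare stretch, since the SmcHD1 wt peak just outside it was 58.3 kb before Defb33 (score 91) and the farthest one inside it was 32.2 kb from Defb14 (score 84). The score is the fifth column of the deposited lists and serves here to rank peaks within a list.

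The sequence of that segment differed from that of the defensin intervals. Of its 50-base words 70.2% occurred again on chr8, against 40.1% in the intervals, and 130 of its 136 SmcHD1 wt peaks (95.6%) were repeated in this sense, taken as at least 50% of a peak's words. In the defensin intervals 0 of 8 were. How reads from repeated copies were placed is not stated in the sources used here, and its part in these densities was not tested. The SmcHD1 mut peak of the highest score in the segment lay at chr8:20330597-20331384, and its middle is shown because it makes the repeat visible. The capitals mark a 20-base word that appears 2 times in the window at a spacing of 156 bases. That word occurs 135 times on chr8 on either strand, of which 133 are in this segment and 0 in the defensin intervals.
SmcHD1 mut peak, chr8:20330841-20331140, + strand: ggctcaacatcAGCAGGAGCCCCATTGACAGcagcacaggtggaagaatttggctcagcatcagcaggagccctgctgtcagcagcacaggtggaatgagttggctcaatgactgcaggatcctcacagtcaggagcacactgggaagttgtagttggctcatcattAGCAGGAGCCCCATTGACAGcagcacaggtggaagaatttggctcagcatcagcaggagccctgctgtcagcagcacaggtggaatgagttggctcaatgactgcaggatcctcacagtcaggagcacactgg

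In the fourth interval the 7 SmcHD1 wt peaks formed a single cluster, chr8:20996281-21010564, which ended 15.0 kb before Defa21, an alpha-defensin gene and the first of its group. Defa21 had 7 SmcHD1 wt peaks within 50 kb, the most of any member, and Defa23 had 4 of the same peaks. The scores of these 7 peaks were 223, 33, 30, 28, 17, 50 and 55 in order along the chromosome, so the one farthest from Defa21, at 28.8 kb, stood well above the other 6. It was at the 94.9th percentile of the wt list, that is 94.9% of SmcHD1 wt peaks had a lower score. None of the 7 met a SmcHD1 peak in mut. In the first interval the single SmcHD1 wt peak, chr8:19161762-19162107 (score 84), lay between Defb34 and Defb14. It was shared by 4 members within 50 kb, Defb12, Defb34, Defb14 and Defb4, each with 1 SmcHD1 wt peak. Defb14 and Defb4 encode beta-defensins that are induced in inflamed epithelia.

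Most of the few SmcHD1 wt peaks of the intervals overlapped a CTCF or Rad21 peak. Of the 8 peaks, 6 overlapped a CTCF or Rad21 wt peak (75.0%, interval 40.9 to 92.8%), against 1949 of 5010 other autosomal SmcHD1 wt peaks (38.9%) and 32 of 136 in the repeat-rich segment (23.5%). With 8 peaks the interval reaches close to 38.9%. The peaks are also not independent, since 7 of them form the cluster before Defa21. The interval is therefore too narrow, and no excess over 38.9% is read from it. The peak near Defb14 overlapped a peak of CTCF and of Rad21 in all 3 genotypes. The peak of the highest score, 28.8 kb before Defa21, overlapped no CTCF or Rad21 peak of any genotype. The 3 SmcHD1 wt peaks of the highest score in the intervals are given below on the + strand, the first at 300 bases around its middle, the second from its start and the third whole. Capitals mark matches, on either strand, to a short form of the CTCF motif: CC, 3 free positions, AG, 2 free positions and GGC. This string was found in 3.28% of the 418694 gap-free windows of 300 bases on chr8 and in 39.1% of CTCF wt peaks of chr8 (300 bases around the middle).
SmcHD1 wt, 28.8 kb before Defa21, chr8:20996345-20996644: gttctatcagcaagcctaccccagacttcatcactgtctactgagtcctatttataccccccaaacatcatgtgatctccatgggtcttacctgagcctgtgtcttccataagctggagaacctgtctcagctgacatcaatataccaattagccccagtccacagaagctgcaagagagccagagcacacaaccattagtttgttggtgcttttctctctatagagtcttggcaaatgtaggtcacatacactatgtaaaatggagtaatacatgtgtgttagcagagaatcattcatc
SmcHD1 wt, between Defb34 and Defb14, chr8:19161762-19162061: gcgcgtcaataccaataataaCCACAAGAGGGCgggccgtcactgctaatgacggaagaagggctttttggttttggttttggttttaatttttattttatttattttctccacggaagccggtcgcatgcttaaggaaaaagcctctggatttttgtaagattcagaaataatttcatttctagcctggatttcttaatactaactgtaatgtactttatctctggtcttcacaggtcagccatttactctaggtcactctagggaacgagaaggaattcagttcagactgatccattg
SmcHD1 wt, 15.0 kb before Defa21, chr8:21010290-21010564: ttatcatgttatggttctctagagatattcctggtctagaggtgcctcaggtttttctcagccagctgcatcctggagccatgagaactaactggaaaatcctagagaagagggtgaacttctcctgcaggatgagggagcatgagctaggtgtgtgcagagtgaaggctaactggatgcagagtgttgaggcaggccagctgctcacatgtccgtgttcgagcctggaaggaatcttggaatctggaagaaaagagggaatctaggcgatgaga
The window between Defb34 and Defb14 held 1 match, near the start of the peak, and the other windows held 0, which says only that these letters are not there. In the 300 bases around the middle, 0 of the 8 SmcHD1 wt peaks of the intervals held a match, against 7.45% of the 322 SmcHD1 wt peaks of chr8.

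CTCF was sparser across the defensin intervals than along the rest of chr8 in each genotype. CTCF peaks in the intervals numbered 27 (wt), 25 (mut) and 36 (somKO). These are 15.9, 14.7 and 21.2 peaks per Mb, against 24.2, 23.0 and 32.1 in the rest of chr8. For wt the ratio of intervals to rest was 0.656 (interval 0.431 to 0.956), for mut 0.639 (0.413 to 0.946) and for somKO 0.659 (0.461 to 0.914). Of the 4 intervals, the fourth had 10.8 CTCF peaks per Mb in wt (ratio 0.444, interval 0.221 to 0.795), that of Defb8 and Defb7 had 13.2 from 2 peaks (ratio 0.543, 0.0658 to 1.96) and that of Defb33 had 0 (upper limit of the ratio 1.45). The first interval went the other way, with 33.3 per Mb (ratio 1.38, interval 0.751 to 2.31). Differences between genotypes in the intervals were close to those in the rest of chr8. From wt to mut the log2 change in CTCF peak number was −0.11 in the intervals (−0.96 to 0.73) and −0.08 in the rest of chr8. From wt to somKO it was 0.42 in the intervals (−0.35 to 1.19) and 0.41 in the rest.

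Rad21 was sparser still. Rad21 peaks in the intervals numbered 16 (wt), 17 (mut) and 20 (somKO), which are 9.41, 10.00 and 11.8 per Mb against 26.0, 27.2 and 42.5 in the rest of chr8. For wt the ratio was 0.362 (0.207 to 0.589), for mut 0.368 (0.214 to 0.590) and for somKO 0.277 (0.169 to 0.428), each below 1 beyond counting error. The log2 change from wt to somKO was 0.32 in the intervals (−0.70 to 1.37) and 0.71 in the rest, and that from wt to mut was 0.09 and 0.07. The interval of the somKO change includes the value of the rest of the chromosome. With genes extended by 10 kb in place of 50 kb the ratios to the rest were lower, at 0.133 to 0.169 for Rad21 and 0.332 to 0.400 for CTCF. The fourth interval, with 7.82 Rad21 wt peaks per Mb, held more repeated sequence than the first, with 16.7, the 50-base shares being 58.0% and 11.6%. The interval of Defb8 and Defb7, with a share of 10.3%, held 0 Rad21 peaks in each genotype (upper limit 24.3 per Mb). The part of read placement in these differences was not tested.

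**Figure D2:**
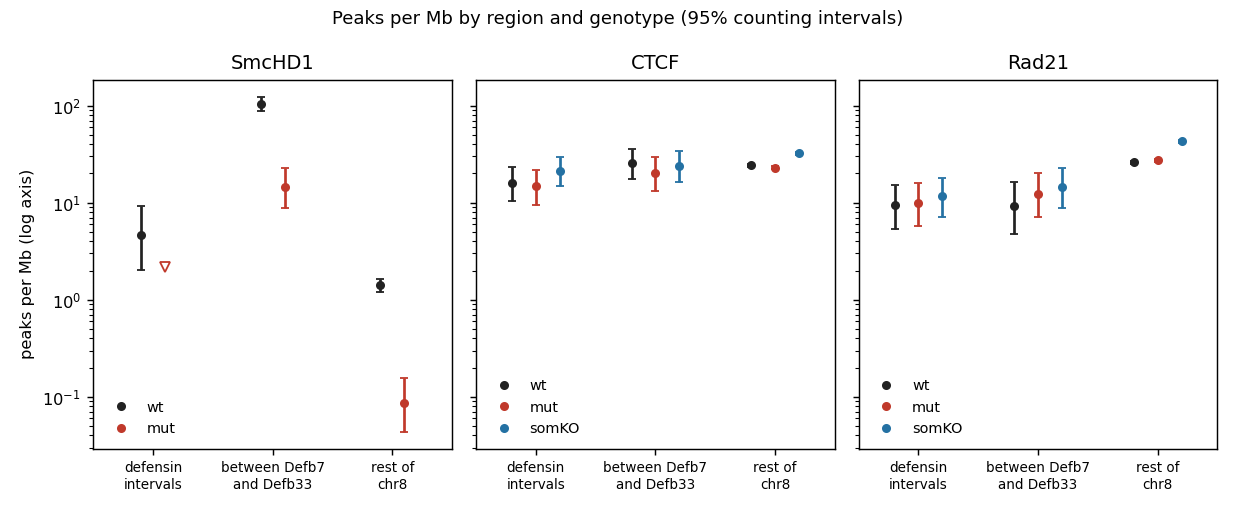
Peaks per Mb (log axis) of SmcHD1, CTCF and Rad21 in the 4 defensin intervals together, in the segment between Defb7 and Defb33, and in chr8 outside the stretch from the first to the last interval. Points are densities and bars exact Poisson 95% intervals, which cover counting error alone, and the open triangle is the upper limit for 0 SmcHD1 mut peaks (2.17 per Mb). Peaks of the SmcHD1 antibody are densest in the segment, at 105.0 per Mb in wt and 14.7 per Mb in the SmcHD1 null mut. CTCF and Rad21 in the intervals lie below the rest of chr8.

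Seen from the genes, CTCF and Rad21 were distant. A CTCF peak lay within 50 kb of 31 of 46 members for wt (67.4%), 30 for mut and 37 for somKO, against 90.0%, 90.0% and 91.6% of all protein-coding genes. For Rad21 the counts were 18 for wt (39.1%), 22 for mut and 30 for somKO, against 89.3%, 89.4% and 91.7%. Neighbouring members share peaks and are not independent. The families differed in these counts. Of the 22 alpha-defensin genes, 13, 13 and 16 had a CTCF peak within 50 kb in wt, mut and somKO, and 5, 6 and 13 had a Rad21 peak. Of the 24 beta-defensin genes, 18, 17 and 21 had a CTCF peak and 13, 16 and 17 a Rad21 peak. The median distance from an alpha-defensin gene to the nearest Rad21 peak was 227.3 kb for wt, 155.0 kb for mut and 39.0 kb for somKO, whereas the median over the 994 other genes of chr8 was 0 in each genotype, that is a peak within the gene. For beta-defensin genes the same medians were 43.3, 31.6 and 33.5 kb. The alpha-defensin values of somKO rested on few peaks. Defa2, Defa33 and Defa36 shared a single Rad21 peak within 50 kb, at percentile 9.76 of its list. Defa20, Defa32, Defa37 and Defa28 shared another, at percentile 63.2. Both were listed in somKO alone and overlap identical copies of a sequence, described below, inside which reads cannot be told apart.

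**Figure D3:**
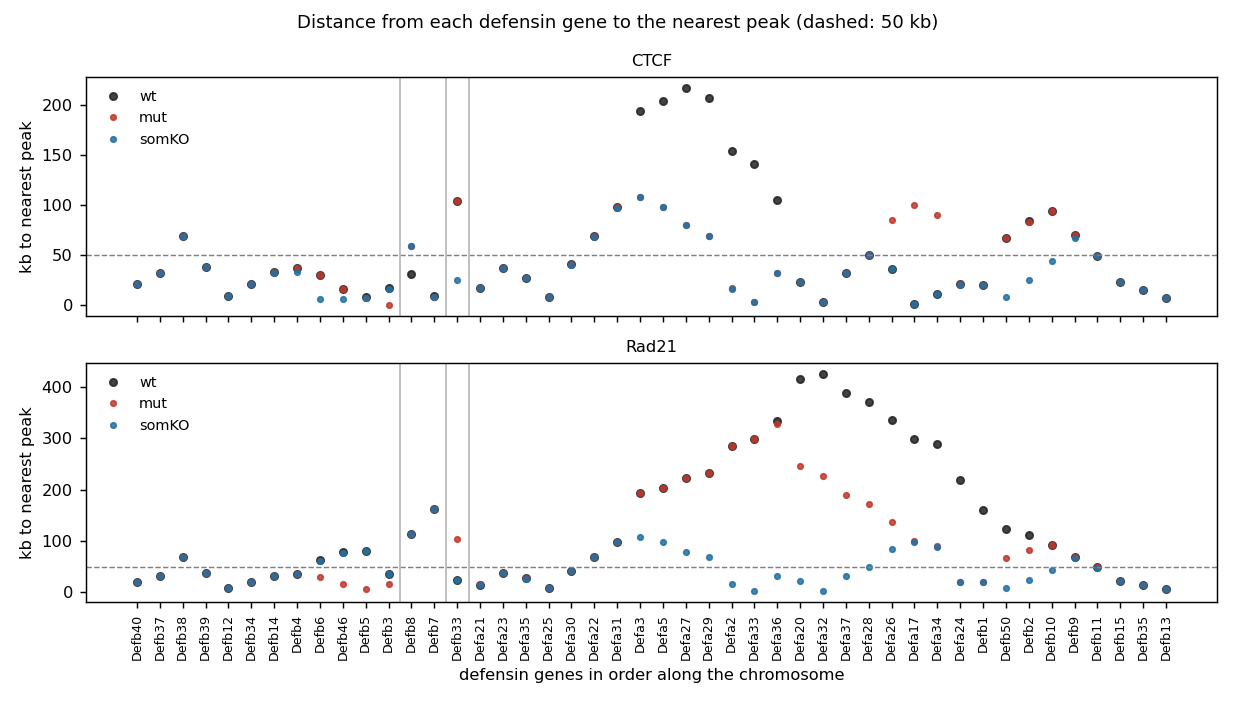
Distance in kb from each of the 46 defensin genes, in order along chr8, to the nearest CTCF peak (top) and Rad21 peak (bottom) in wt, mut and somKO, with a dashed line at 50 kb and grey lines between the 4 intervals. Over the alpha-defensin genes the wt distance reached 216.6 kb for CTCF and 424.9 kb for Rad21, and the somKO distance 107.3 and 107.4 kb.

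The distances rested on a long stretch without peaks, which was picked out after the values were seen. In wt no Rad21 peak was listed over 861.5 kb (chr8:21093439-21954922), from Defa30 to Defb13, a stretch with 27 of the 46 members. It was the 10th longest of 3330 stretches between Rad21 wt peaks on chr8, whose median was 11.5 kb. In mut the longest stretch over the alpha-defensin genes was 663.0 kb with 18 members, the 17th longest of 3485, and in somKO it was 302.2 kb with 9 members, the 39th longest of 5447. CTCF in wt left 439.6 kb free (chr8:21093554-21533107), with 12 members from Defa30 to Defa32. The corresponding stretch was 302.0 kb in mut and 301.1 kb in somKO. Both ended at the same CTCF site after Defa33, at percentile 15.6 in mut and 6.03 in somKO. The 302.2 kb Rad21 stretch of somKO ended there too, at a peak of percentile 9.76. That site overlaps a sequence with an identical copy after Defa32, described below. The somKO lists were the longest of each protein, with 69736 CTCF and 89974 Rad21 peaks against 60204 and 67655 in wt. On chr8 the difference was larger, with 4137 CTCF and 5448 Rad21 peaks in somKO against 3120 and 3331 in wt. The log2 change was 0.41 and 0.71 in the rest of chr8, against 0.21 and 0.41 over the whole lists. The shorter stretches of somKO were seen beside these differences in length. In mut, chr8 had 2961 CTCF peaks, fewer than in wt, and 3486 Rad21 peaks. Repeated 50-base words made up 61.3% of the Rad21 wt stretch and 78.5% of the CTCF wt stretch.

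Peaks that differed between genotypes were counted next. Peaks of mut or somKO with no wt peak in overlap (at least 1 bp) count as gained, and wt peaks with none in the other genotype count as lost. In mut, 4 of 25 CTCF peaks in the intervals were gained (16.0%, against 16.8% of all CTCF mut peaks), and 7 of 27 wt peaks were lost (25.9%, against 19.7%). In somKO, 13 of 36 CTCF peaks were gained (36.1%, interval 22.5 to 52.4%). The share was 22.6% over the whole list and 32.5% in the rest of chr8, inside that interval. Lost in somKO were 4 of 27 (14.8%, interval 5.92 to 32.5%, against 7.63% of the whole wt list and 4.59% in the rest of chr8). These 4 wt peaks were among the weakest of their list, at percentiles 2.11, 1.03, 0 and 0, and 3 of them lay in introns of Xkr5. For Rad21, 5 of 17 peaks were gained in mut (29.4%, against 27.2%) and 4 of 16 lost (25.0%, against 28.5%). In somKO 8 of 20 Rad21 peaks were gained (40.0%, interval 21.9 to 61.3%). The share was 37.8% over the whole list and 50.4% in the rest of chr8, inside that interval. Lost in somKO was 1 of 16 Rad21 wt peaks (6.25%, interval 1.11 to 28.3%). This share was 7.22% over the whole wt list and 2.8% in the rest of chr8. For CTCF lost in somKO the interval lay above the share in the rest of chr8, but with lists of equal length the share was 4.55% (1 of 22) against 6.58% in the rest. With lists of equal length the share gained in somKO was 22.2% against 19.4% in the rest. The shares in the intervals were thus near the background or dependent on list length, and are no result about the defensin genes.

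Joining overlapping peaks of the 3 genotypes gave 42 CTCF sites and 23 Rad21 sites in the intervals. Of the CTCF sites, 20 were listed in all 3 genotypes, 11 in somKO alone, 4 in wt alone (the lost peaks above), 2 in mut alone, 3 in wt and somKO and 2 in mut and somKO. Of the Rad21 sites, 10 were in all 3 genotypes, 6 in somKO alone, 1 in wt alone, 2 in mut alone, 2 in wt and somKO and 2 in mut and somKO. No site of either protein was shared by wt and mut without somKO. The percentiles given below rank a site within its own list, and the lists differ in length. A higher percentile in another genotype is therefore not read as stronger binding.

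**Figure D4:**
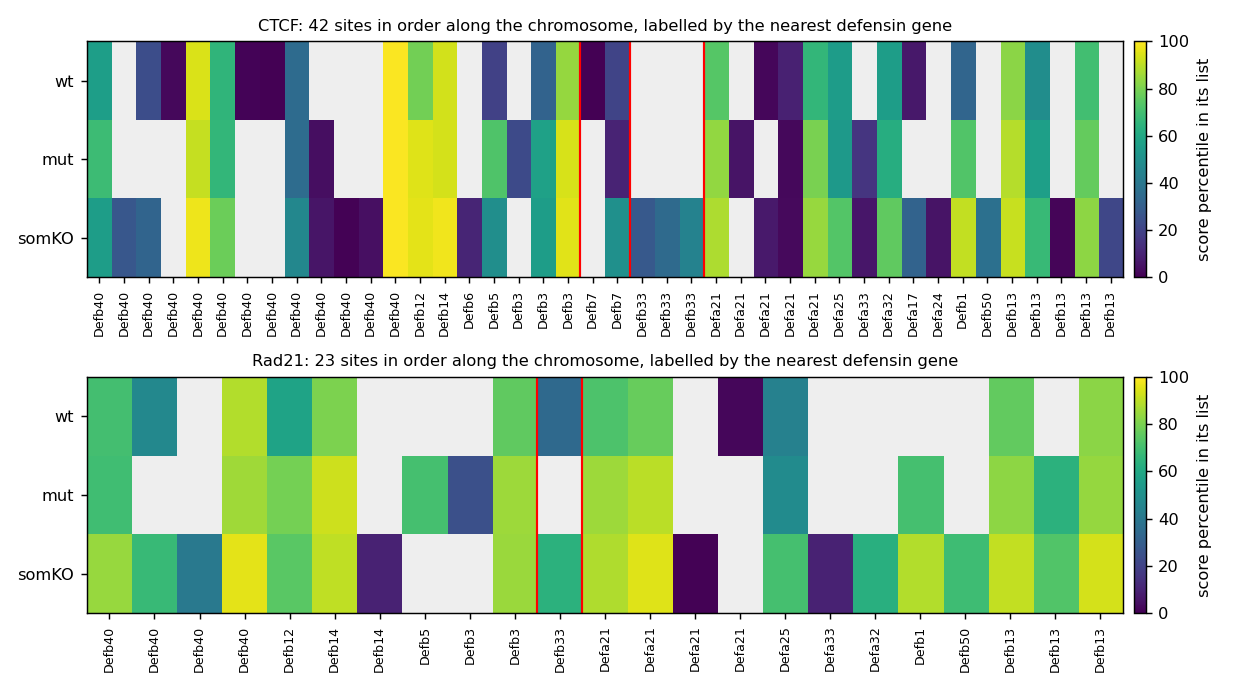
Score percentile of each CTCF site (42, top) and Rad21 site (23, bottom) in wt, mut and somKO, where 100 is the highest score of its list and grey means that no peak was listed. Sites are in order along chr8 and carry the name of the nearest defensin gene, and red lines separate the intervals that hold sites. The CTCF site 20.3 kb before Defb40 is above the 99th percentile in all 3 genotypes, and the 11 CTCF sites listed in somKO alone are all at percentile 44.4 or below.

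Among the members, Defb40, the first beta-defensin gene of the cluster, had the most CTCF peaks within 50 kb, with 9, 7 and 10 for wt, mut and somKO, and 4, 2 and 4 Rad21 peaks. Several of these peaks lay in the neighbouring gene Xkr5. The CTCF site 20.3 kb before Defb40, chr8:18953327-18954689, was the strongest of the intervals, at percentiles 99.4, 99.5 and 99.5 in wt, mut and somKO, with Rad21 at 88.3, 85.9 and 96.0. It is shown around its motif as the clearest CTCF site near a defensin gene.
CTCF in all genotypes, before Defb40, chr8:18954116-18954265, + strand: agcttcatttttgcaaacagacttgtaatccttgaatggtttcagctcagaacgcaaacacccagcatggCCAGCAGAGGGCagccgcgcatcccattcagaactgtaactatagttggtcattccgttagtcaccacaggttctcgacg
Defb12 had 2 CTCF peaks within 50 kb in each genotype, and 2, 3 and 3 Rad21 peaks in wt, mut and somKO. Defb14 and Defb4, which are neighbours, had the same counts, with 1, 1 and 2 CTCF peaks and 1, 2 and 2 Rad21 peaks. Neither gene overlapped a peak itself. Their 2 Rad21 peaks in mut belonged to 1 joined site, chr8:19160546-19162918.

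Defb3, at the end of the first interval, encodes an inducible beta-defensin of the airways. It had 3, 4 and 3 CTCF peaks and 1, 3 and 1 Rad21 peaks within 50 kb in wt, mut and somKO. The additional CTCF peak of mut, chr8:19293344-19293554, covered the start of Defb3 and was the sole peak on a member. Its score was low, at percentile 22.4 of the mut list. A Rad21 peak listed in mut alone lay 7.1 kb after Defb5 at percentile 70.6, on a CTCF site at percentiles 19.4, 72.6 and 49.3 for wt, mut and somKO. Defb5 was named after its values were seen, as were all members below that are not first or last in an interval, other than Defb1.

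The intervals of Defb8 and Defb7 and of Defb33 held few peaks. Defb8 had 1 CTCF peak in wt and 0 in mut and somKO, and Defb7 had 2, 1 and 1, while neither had a Rad21 peak in any genotype. The peak that Defb8 shared with Defb7 in wt was at percentile 0, that is at the lowest score of the list. The site 8.1 kb after Defb7 was at percentiles 20.4, 9.9 and 50.3. Defb33 had 0 CTCF peaks in wt and in mut, and 3 in somKO at percentiles 28.0, 34.6 and 44.4. One of these, 24.6 kb before the gene, coincided with a Rad21 site that was listed in wt (percentile 34.2) and somKO (64.2) but not in mut.

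At the head of the fourth interval, Defa21 had 4 CTCF peaks within 50 kb in each genotype and 5, 4 and 3 Rad21 peaks in wt, mut and somKO. Of these Rad21 peaks, 3, 3 and 1 belonged to a single joined site, chr8:21004799-21009512, at percentiles 76.7, 89.6 and 95.3. The lower count in somKO therefore did not go with a lower percentile of that site. The CTCF and Rad21 peaks near Defa21 overlay the cluster of SmcHD1 wt peaks described above. The 2 strongest CTCF sites there, 23.6 kb and 16.6 kb before the gene, were at percentiles 73.6 and 66.1 in wt, 83.7 and 80.0 in mut, and 87.8 and 84.7 in somKO. At the other end of the interval, Defb13, a beta-defensin gene, had 3, 3 and 5 CTCF peaks and 2, 3 and 3 Rad21 peaks. The CTCF site 6.3 kb after Defb13 was at percentiles 82.4, 88.7 and 91.7 and carried Rad21 in all 3 genotypes.

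Defb1, the constitutively expressed epithelial beta-defensin and the largest member, adjoins the last Defa gene, Defa24. A CTCF site between them, chr8:21755589-21756905 and 19.7 kb before Defb1, stood at percentile 32.8 for wt, 72.8 for mut and 90.9 for somKO. Rad21 was not listed there in wt, where the nearest Rad21 peak to Defa24 was 219.5 kb away, and was at percentiles 70.6 in mut and 88.5 in somKO. This site ended the 663.0 kb stretch without Rad21 in mut. In somKO it ended a stretch of 221.9 kb with 6 members from Defa37 to Defa24, not the longest one. Its middle part in mut held no match to the motif string.
CTCF mut, between Defa24 and Defb1, chr8:21756336-21756635, + strand: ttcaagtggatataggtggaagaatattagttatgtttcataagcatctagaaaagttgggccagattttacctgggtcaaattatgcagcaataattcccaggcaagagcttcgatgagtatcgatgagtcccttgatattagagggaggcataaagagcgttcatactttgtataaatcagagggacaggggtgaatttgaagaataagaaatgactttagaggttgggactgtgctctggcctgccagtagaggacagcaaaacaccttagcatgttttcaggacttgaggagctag
Between Defb1 and Defb50 a further site, 8.1 kb before Defb50, was listed in somKO alone for both CTCF (percentile 37.0) and Rad21 (68.8). These sites were picked for their difference, and no replicate list allows a test of it.

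Inside the alpha-defensin group, some CTCF peaks lay on duplicated flanks of the genes. Across the defensin intervals, 2 of 27, 2 of 25 and 6 of 36 CTCF peaks were repeated on chr8 in wt, mut and somKO. A CTCF peak of mut 3.0 kb after Defa33, chr8:21395819-21396069, was listed in mut (percentile 15.6) and somKO (6.03) and not in wt. Its 251 bases occurred without a difference at chr8:21533023-21533273, 3.0 kb after Defa32, where CTCF was listed in all 3 genotypes at percentiles 55.7, 62.5 and 75.6. Rad21 was listed at both copies in somKO alone. Reads that fall wholly inside one of these 2 copies cannot be told apart. A search of chr8 for sequences of at least 85% identity over the length gave 12 copies in all, each 1.89 to 7.83 kb from a Defa gene, of which 2, 3 and 3 carried CTCF in wt, mut and somKO. The sequence is shown as an example of a site that the reference holds more than once.
CTCF mut, after Defa33, and its identical copy after Defa32, chr8:21395819-21396069, + strand: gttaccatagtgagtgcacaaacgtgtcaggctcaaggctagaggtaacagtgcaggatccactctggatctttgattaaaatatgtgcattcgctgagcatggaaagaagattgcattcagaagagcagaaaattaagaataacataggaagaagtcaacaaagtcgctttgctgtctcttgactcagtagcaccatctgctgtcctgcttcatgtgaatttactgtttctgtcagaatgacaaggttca

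A CTCF peak also lay 0.971 kb before Defa17, chr8:21654548-21654809, the closest of any CTCF peak to an alpha-defensin gene. It was listed in wt (percentile 6.60) and somKO (31.9) and not in mut. The sequence occurred in 6 copies of at least 85% identity on chr8, each about 1 kb before a Defa gene (Defa23, Defa30, Defa31, Defa3, Defa17 and Defa24). Of the 6 copies, 4 held the motif string and 1, that before Defa17, carried a CTCF peak. The copy before Defa3 differed from it at 3 of 262 bases, held the motif string too and had no CTCF peak in any genotype. Of the 3 differences, 1 lay inside the string, at a free position, so the capitals are not identical in the 2 copies. Both are printed so that they can be compared, with the motif in capitals.
CTCF somKO, before Defa17, chr8:21654548-21654809, + strand: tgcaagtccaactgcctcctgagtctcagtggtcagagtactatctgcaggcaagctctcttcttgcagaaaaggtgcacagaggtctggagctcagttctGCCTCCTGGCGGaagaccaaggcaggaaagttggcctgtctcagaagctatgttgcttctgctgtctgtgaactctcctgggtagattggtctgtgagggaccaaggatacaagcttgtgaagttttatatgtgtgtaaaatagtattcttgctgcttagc
Copy without a peak, before Defa3, chr8:21286190-21286451, + strand: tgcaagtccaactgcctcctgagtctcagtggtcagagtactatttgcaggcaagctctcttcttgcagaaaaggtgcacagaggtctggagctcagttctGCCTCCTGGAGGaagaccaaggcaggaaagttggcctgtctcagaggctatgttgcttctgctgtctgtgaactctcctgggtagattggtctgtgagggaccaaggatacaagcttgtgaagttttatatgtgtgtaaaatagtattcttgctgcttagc

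Across the intervals the motif string was present in the middle 300 bases of 5 of 27 CTCF wt peaks (18.5%), 3 of 25 in mut (12.0%) and 6 of 36 in somKO (16.7%). The shares over all CTCF peaks of chr8 were 39.1%, 36.9% and 38.8%. Of the 26 member promoters with a RefSeq entry, 2 held the string, against 8.61% of 32851 promoters.

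Other gene groups were measured in the same way. The 18 Defb genes on 3 other chromosomes, which also encode beta-defensins, had 68.0 CTCF wt peaks per Mb, 3.39 times the rest of their chromosomes (interval 2.41 to 4.64), and 45.4 Rad21 wt peaks per Mb (ratio 1.97, interval 1.28 to 2.88). A CTCF wt peak lay within 50 kb of 17 of these 18, against 90.0% of all protein-coding genes. Their SmcHD1 wt density was 1.74 per Mb, from 1 peak. The 122 Vmn2r genes, a large family of vomeronasal receptors in tandem arrays, were low in both, with 5.20 CTCF (ratio 0.238, interval 0.182 to 0.305) and 5.29 Rad21 wt peaks per Mb (ratio 0.222, 0.170 to 0.284). The Rad21 ratio at the defensin genes was 0.362. SmcHD1 wt peaks within 50 kb of genes were dense in 2 other groups of related genes, with 117.9 per Mb at the 7 Speer4 genes of chromosome 5 and 308.9 per Mb at Sp100, Sp110 and Sp140 of chromosome 1, against 4.70 at the defensin genes. In mut both groups had 0 SmcHD1 peaks. Rad21 was low in wt there too, with a ratio to the rest of the chromosome of 0.546 (0.298 to 0.917) at Speer4 and of 0.377 (0.0456 to 1.36, from 2 peaks) at the Sp100 group, while the somKO ratios were 0.959 and 1.19. CTCF in wt was above the rest at Speer4 (ratio 1.64, 1.17 to 2.23), and at the Sp100 group the ratio was 1.86 (0.804 to 3.68). A Rad21 ratio below 1 was therefore not particular to the defensin genes.

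Other genes of antimicrobial defence were read from a fixed list of 11, of which 10 were annotated as protein-coding. These were Mmp7, the protease that activates mouse alpha-defensins, the antimicrobial proteins Lyz1, Ang4, Reg3b, Reg3g, Itln1 and Camp, the chemokine receptor Ccr6, and the microbial sensors Tlr4 and Nod2. All 10 had a CTCF peak and a Rad21 peak within 50 kb in each genotype. Over all protein-coding genes the shares were 90.0% to 91.6% for CTCF and 89.3% to 91.7% for Rad21. A count of 10 of 10 is near that background. Mmp7 had 2, 3 and 3 CTCF peaks and 2, 2 and 3 Rad21 peaks in wt, mut and somKO. SmcHD1 wt peaks lay near 2 of the 10, Itln1 and Ccr6, with 1 each, against 19.9% of all protein-coding genes. SmcHD1 mut peaks lay near Itln1 alone, with 2, against 2.09% of all protein-coding genes. Nod2, which is also on chr8, had 3, 4 and 3 CTCF peaks and no SmcHD1 peak.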

How the data were processed

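ChIP-seq peak lists of SmcHD1 (3 libraries in wt, 3 in mut), CTCF (3, 3 and 4 in wt, mut and somKO) and Rad21 (2, 2 and 4) were used, 24 of 52 samples. Groups came from the labels, and libraries of H3K27me3 and of input DNA were left out. According to the methods, reads were aligned with bowtie2 to mm10 with strain variants masked, and the authors called narrow peaks with MACS2 at q below 0.05 on merged replicates and both alleles. Versions, use of inputs and depth are not given in the sources used here. The deposited lists hold coordinates and a score per peak, whose scale is not stated and which was used for ranks alone. SmcHD1 and Rad21 chromatin was fixed with EGS and formaldehyde, CTCF chromatin with formaldehyde alone.

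The members and lists were chosen with earlier results of these data known. Genes came from GENCODE M21, sequence from GRCm38. Peaks overlapping an interval by at least 1 bp were counted with Python 3.11.15, numpy 2.4.6, pandas 2.3.3 and scipy 1.17.1 (exact Poisson, exact conditional and Wilson 95% intervals). Copies of at least 85% identity were found with edlib 1.3.9.post1. Counting was tested on simulated lists. Members named singly were the first and last of each interval, those with most SmcHD1 peaks within 50 kb, Defb1, Defb4, Defb14 and Defb33, and peaks the 3 SmcHD1 peaks of the highest score in each genotype. Others were chosen after seeing their values, as were the segment between the groups, the peak-free stretches and the motif string. Alternatives were genes extended by 10 or 200 kb, a score of at least 50, midpoints, pseudogenes, gap-free length, non-repeated peaks, lists of equal length and an overlap of 50%.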

Additional observations from a re-analysis of the deposited data

How the results depend on the processing

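Of 120 alternative values, 92 stayed within the counting interval of the value reported (or within 1.5 times a count of genes) and 28 moved. The CTCF and Rad21 ratios stayed below 1 in each genotype and setting, but the SmcHD1 ratios and several gained and lost shares crossed the value of the rest of chr8 under some settings. With genes extended by 10 kb, the ratio of intervals to rest was 0 for SmcHD1 wt, 0.332, 0.400 and 0.357 for CTCF in wt, mut and somKO, and 0.133, 0.169 and 0.163 for Rad21. Members with a peak were then 0 for SmcHD1 wt, 7, 8 and 11 for CTCF and 3, 4 and 6 for Rad21. The share of all protein-coding genes at 10 kb was not counted. The lost share was 0 for CTCF in somKO and for Rad21 in mut and somKO, since fewer peaks were counted. With 200 kb the intervals reached into the segment between Defb7 and Defb33, and the SmcHD1 ratio was 3.54 in wt (2.13 to 5.56) and rose from 0 to 5.93 in mut (1.15 to 19.3, from 3 peaks), so the absence of SmcHD1 peaks in mut holds for 50 kb and not for 200 kb. Without peaks repeated on chr8 the SmcHD1 wt ratio was 6.83 (interval from 2.86), since repeated peaks were dropped from the rest of chr8 and 0 of the 8 was one. With the segments between the groups left out of the rest, an alternative chosen after seeing the data, it was 3.34 (1.42 to 6.72), so whether the SmcHD1 wt density exceeded that of the rest depends on this choice. An overlap of 50% of both peaks gave gained shares of 58.3% for CTCF in somKO and 64.7% and 80.0% for Rad21 in mut and somKO against 45.0%, 47.0% and 73.1% in the rest of chr8. Lost shares were then 44.4%, 62.5% and 75.0% against 27.1%, 44.5% and 56.0%. Lists of equal length gave 9.09% lost in mut (rest 17.1%), 22.2% gained (rest 19.4%) and 4.55% lost in somKO (rest 6.58%) for CTCF, and 0 lost in somKO for Rad21 (rest 6.71%), so that the lost shares went from above to below the rest. No paired analysis was possible because each list merges all replicates, and for the same reason no replicate could be left out. Depth of the libraries is unknown, so fewer peaks in a list may not mean less binding.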

Other observations

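The segment between Defb7 and Defb33 also held some of the strongest CTCF peaks of the series. CTCF peaks there numbered 33 (wt), 26 (mut) and 31 (somKO), of which 9, 9 and 10 were in the top 1% of their list by score. Among the 50 highest-scoring CTCF peaks of each whole list, 7, 8 and 7 lay there, and the highest ranked 12, 2 and 4. Of these CTCF peaks 87.9%, 76.9% and 80.6% were repeated on chr8. Rad21 had 12, 16 and 19 peaks in the segment, none of them in the top 1% in wt and somKO and 1 in mut. SmcHD1 mut peaks were 14.0% as many as SmcHD1 wt peaks there, 6.18% elsewhere on chr8 and 3.49% over the whole lists. The difference was not tested, since each genotype had 1 list.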
